A study of Mus musculus with 20 samples.

Results

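The transcripts described here are the Schwann cell and myelin genes of the mouse ear pinna, the external ear with its skin, cartilage, muscle, fat and nerve twigs. They were taken from a list of 32 named genes and matched to the deposited table by Ensembl identifier through their mouse symbols. The list was split into myelin genes and genes of non-myelinating or immature Schwann cells, with genes of the whole lineage or of no settled place kept apart. In all 31 of the 32 were among the 16669 genes of the table, and the other, Gfap, was not analysed here. All 31 passed the filter on low values and were tested among 16461 genes. There were 21 myelin genes, 6 non-myelinating or immature genes and 4 others (Sox10, S100b, Erbb3 and Art3).

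The tissue was measured by bulk RNA-seq of total RNA in 4 groups with 5 libraries in each, 20 in all. Right ears were injected into the dermis with 10 µl of cytokine at 0.1 µg/µl in PBS (IL-4, IL-13 or IL-31 by group), or with 10 µl of PBS alone. The first pair are type 2 cytokines with a common receptor chain, and IL-31 is a cytokine associated with itch. The labels name no strain, sex, age or time of harvest, and no animal behind each library. A p-value here therefore reflects only how far these samples spread, which may be technical. Values are log2 CPM, library-scaled read counts on a log2 scale, with an offset of 0.156 CPM inside the logarithm.

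Schwann cells are the glia of peripheral nerves. Myelinating Schwann cells wrap a segment of a large axon in a compacted sheath, while non-myelinating (Remak) Schwann cells hold small sensory and autonomic axons in shallow grooves. The transcription factor SOX10 marks the whole lineage, POU3F1 and then EGR2 drive the step to myelination, and axonal neuregulin acts on the glial receptor ERBB3. In skin the small bundles feed touch receptors, itch and pain fibres, hair follicles and vessels, so glial transcripts are a minor share of a whole-ear RNA sample.

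The defining markers of the lineage were present in every library. Sox10 ranged from 1.91 to 4.06 log2 CPM over the 20 libraries, S100b from 5.08 to 6.66 and Mbp from 6.31 to 7.44. Melanocytes, which also come from the neural crest and share Sox10 and Erbb3 with glia, were in the tissue too, with Dct, a pigment enzyme, at a mean of 4.47 log2 CPM. In bulk tissue, fewer cells of a type and less RNA per cell cannot be told apart.

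Promoter windows of 4 members that the results return to are shown first, because SOX10 and EGR2 are the known regulators of peripheral myelin genes and their short recognition words can be read off directly. RefSeq (GRCm38.p6) promoter windows of 22 of the 31 genes were used, 37 windows in all. The 250 bases before the annotated start are printed 5' to 3' along the gene's strand, in lower case, with every match to a searched word in capitals on whichever strand it lies. The words were ACAAAG and ACAATG, which SOX proteins bind, and GCGNGGG, the core of EGR sites. Both strands were searched, and a match on the other strand shows as its reverse complement. In the windows printed here no match to a SOX word overlapped a match to the EGR word. Art3 has alternative starts, and the upstream window lies at chr5:92331577-92331826 and an internal window at chr5:92386637-92386886, both on the plus strand. The windows printed overlap annotated exons by at most 4 bases. The Scn7a window lies at chr2:66784911-66785160 on the minus strand, the upstream of the 2 Ncmap windows at chr4:135398228-135398477 on the minus strand and the Cadm4 window at chr7:24481773-24482022 on the plus strand.
Art3 upstream start: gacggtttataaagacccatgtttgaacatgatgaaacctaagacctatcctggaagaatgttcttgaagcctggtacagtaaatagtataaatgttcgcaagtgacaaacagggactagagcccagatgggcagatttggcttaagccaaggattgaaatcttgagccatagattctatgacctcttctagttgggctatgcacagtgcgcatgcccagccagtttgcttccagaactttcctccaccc
Art3 internal start: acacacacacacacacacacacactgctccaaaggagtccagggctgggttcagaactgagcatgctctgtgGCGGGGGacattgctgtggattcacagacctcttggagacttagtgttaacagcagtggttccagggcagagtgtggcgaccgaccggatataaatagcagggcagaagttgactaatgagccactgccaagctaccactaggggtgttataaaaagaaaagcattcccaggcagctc
Scn7a: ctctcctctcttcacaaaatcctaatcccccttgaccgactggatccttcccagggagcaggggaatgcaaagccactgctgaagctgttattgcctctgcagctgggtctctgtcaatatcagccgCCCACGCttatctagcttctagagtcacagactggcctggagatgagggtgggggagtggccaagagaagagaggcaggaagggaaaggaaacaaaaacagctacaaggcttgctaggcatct
Ncmap: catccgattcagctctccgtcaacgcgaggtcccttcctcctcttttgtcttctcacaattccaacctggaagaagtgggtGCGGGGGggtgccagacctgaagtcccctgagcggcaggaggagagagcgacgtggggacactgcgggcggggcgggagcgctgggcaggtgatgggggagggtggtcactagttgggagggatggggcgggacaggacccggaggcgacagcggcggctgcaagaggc
Cadm4: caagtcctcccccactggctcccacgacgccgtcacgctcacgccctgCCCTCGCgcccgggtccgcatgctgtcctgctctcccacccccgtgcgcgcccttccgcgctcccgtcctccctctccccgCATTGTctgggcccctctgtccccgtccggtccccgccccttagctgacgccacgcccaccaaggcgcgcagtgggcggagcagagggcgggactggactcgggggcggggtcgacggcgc

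The upstream Art3 window held none of the 3 words, and the internal window printed here held GCGNGGG at 178 bases before the start. Another internal Art3 window, all 250 bases of which lie in annotated exon, held ACAAAG at 43 bases before its start and no GCGNGGG, and is not printed. In Scn7a the word GCGNGGG lay 123 bases before the start and in Ncmap 169 bases before it. The downstream Ncmap window, not printed, held GCGNGGG at 35 bases before its start. The window of Cnp, with 35 bases in annotated exon and likewise not printed, held ACAAAG at 167 bases before its start. Cadm4, an adhesion protein of the inner myelin surface, held ACAATG at 121 bases and GCGNGGG at 202 bases before its start. Across the member windows, 18 of 37 held GCGNGGG (48.6%), against 20.3% of the 32851 RefSeq promoter windows of the same length. For ACAAAG the share was 13.5% of member windows against 16.5% of all windows, and for ACAATG it was 5.41% against 10.7%. The member shares cover only the 22 genes whose windows were used. For 28 of the 37 windows the first 50 transcribed bases were found in an annotated (GENCODE) transcript of the gene. All windows printed above were among the 28, and the shares count all 37. Windows on chromosome 18, where Mbp lies, were left out of the member search but not out of the windows of all genes. The Mbp promoter was therefore not searched. Windows of alternative starts of the same gene can overlap, so they are not independent, and GCGNGGG is favoured by any window rich in G and C. A match is a description of the letters in the window.

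Levels per length set the order of the members across all libraries. Fa2h, a fatty acid hydroxylase that makes hydroxylated sphingolipids of myelin and is also used by sebaceous glands, led with 160 CPM per kb of exon. Pmp22, a compact-myelin protein whose duplication causes a human neuropathy, followed at 64.6 CPM per kb, S100b, a calcium-binding protein of Schwann cells and other cell types, at 43.4, Pou3f1 at 39.5 and Erbb3 at 20.4. Mbp, the protein that seals the cytoplasmic faces of compact myelin, stood at 14.7 CPM per kb. At the low end were Foxd3, a neural crest factor, at 0.495, Ugt8a, the enzyme that makes galactosylceramide, at 0.468, and Nfasc, an adhesion protein of nodes and paranodes, at 0.304 CPM per kb. Levels of at least 0 log2 CPM were reached in all 20 libraries by 25 of the 31 members, and Foxd3 reached it in only 13.

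**Figure D1:**
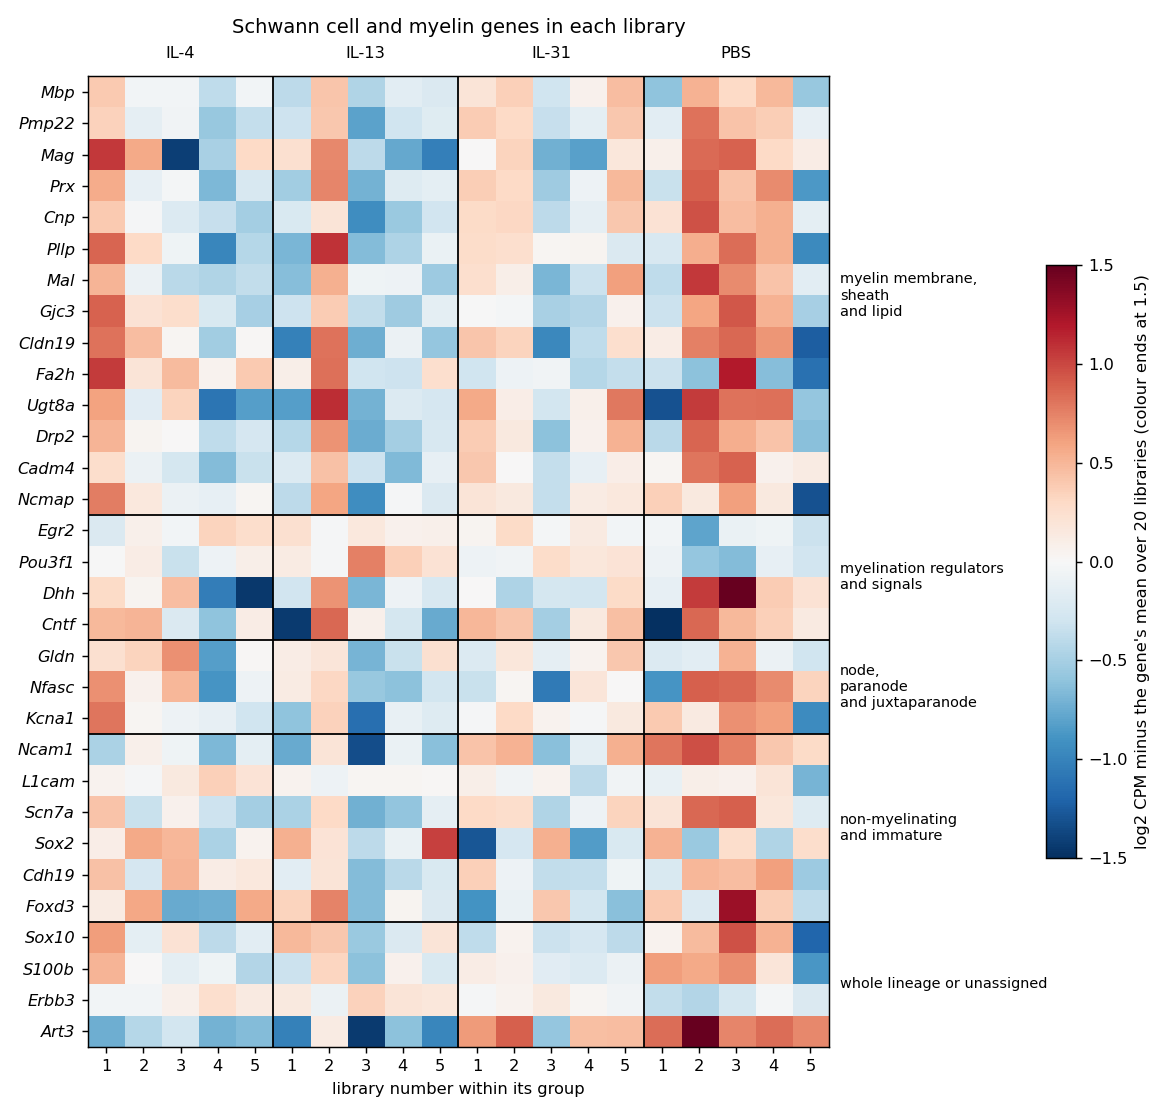
Heat map of the 31 members (rows, grouped by role) in the 20 libraries (columns, libraries 1 to 5 of IL-4, IL-13, IL-31 and PBS from left to right); colour is log2 CPM minus the gene's mean over all libraries, and ends at 1.5. Within a group the myelin rows share their high and low libraries, as in IL-4 library 1 and IL-13 library 2, where all 14 membrane, sheath and lipid genes were at their group's highest value.

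The question of the comparisons with PBS is which of these transcripts differ in the ear after each cytokine. Few did. In IL-4 against PBS, 3 of the 31 members passed (limma, Benjamini-Hochberg adjusted p under 0.05 over all 16461 genes), beside 17.8% of all genes tested. In IL-13 against PBS, 6 of 31 passed, beside 19.7% of all genes, and in IL-31 against PBS 1 of 31, beside 6.38% of all genes. These shares of the members (9.68%, 19.4% and 3.23%) were close to or below that background. The members that passed were Art3, Ncam1, Scn7a and Cnp, which fell, and Erbb3 and Pou3f1, which rose. The count in IL-4 was 6 without IL-4 library 1 or without PBS library 5, and 5 without PBS library 4. The count in IL-31 was 0 in 8 of the 10 fits that left out a library, 2 without PBS library 4 and 4 without PBS library 5. Of all genes that passed, 46.1% were higher in IL-4 and 50.4% in IL-13, and with each library centred on its median these shares were 65.0% and 67.1%.

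**Figure D2:**
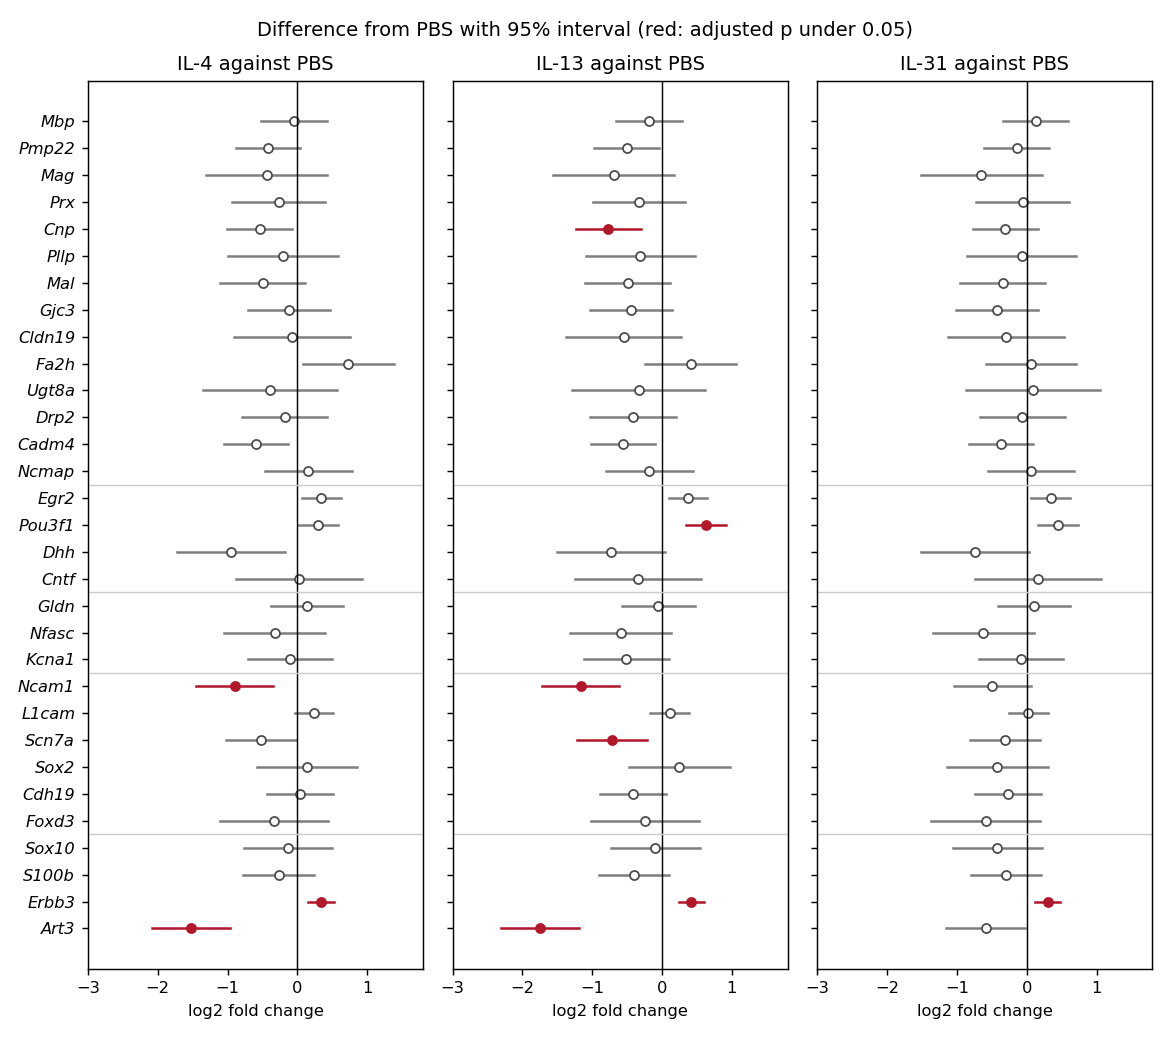
Log2 fold change of each member against PBS with its 95% interval from limma, with the IL-4, IL-13 and IL-31 panels from left to right; red points passed at an adjusted p under 0.05. Most intervals cross 0, and Art3 lies farthest to the left in IL-4 (-1.52) and IL-13 (-1.75).

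The 21 myelin genes gave 0 calls in IL-4, 2 in IL-13 (Cnp lower and Pou3f1 higher) and 0 in IL-31. At an unadjusted p under 0.05 there were 6, 5 and 2, and the share of all genes at that level was 31.5%, 33.7% and 23.8%. Their median log2 fold change was -0.18 in IL-4, -0.42 in IL-13 and -0.07 in IL-31, beside -0.02, -0.03 and -0.04 for all genes tested. By role, the median was -0.24, -0.43 and -0.11 for the 14 membrane, sheath and lipid genes in the same order. For the 4 regulators and signals it was 0.16, 0.01 and 0.25, and for the 3 node genes -0.11, -0.51 and -0.08. Fold changes lay below 0 for 15 of the 21 in IL-4, 18 in IL-13 and 13 in IL-31, beside 52, 53.3 and 55.8% of all genes. The 3 comparisons share their PBS libraries. Median widths of the 95% intervals were 1.22 log2 units for the myelin genes and 0.69 for all genes, so a fall of the size of these medians was not detectable gene by gene.

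The myelin result depended on which PBS libraries were used. PBS libraries 1, 2 and 3 stood apart from libraries 4 and 5 in suprabasal keratinocyte genes, with scores (mean centred log2 CPM over 12 genes) of -1.55, -2.01 and -2.52 against 0.10 and 0.23. Without those 3 libraries the median of the myelin genes was 0.02 in IL-4, -0.17 in IL-13 and 0.19 in IL-31, with 10, 15 and 9 of 21 below 0. Over all members the calls were then 2, 1 and 0, with 2 PBS libraries left, and over all genes tested 1200, 385 and 0. The libraries left out include PBS libraries 2 and 3, the highest of PBS for 9 and 10 of the 21 myelin genes. Leaving out PBS library 5 alone, the lowest of PBS for 10 of them, gave medians of -0.39 in IL-4, -0.60 in IL-13 and -0.31 in IL-31. In that fit 16, 18 and 17 of the 21 lay below 0.

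Among the 14 genes of the myelin membrane, sheath and lipids, Cnp was the gene that passed. Cnp, the cyclic nucleotide phosphodiesterase of uncompacted myelin (chromosome 11, 100574904 to 100591729, plus strand, GRCm38), read 4.06, 4.48, 3.36, 3.73 and 4.00 log2 CPM in IL-13 libraries 1 to 5, against 4.51, 5.25, 4.75, 4.83 and 4.14 in PBS libraries 1 to 5. It read 4.68, 4.27, 4.08, 3.95 and 3.78 in IL-4 and 4.57, 4.60, 3.89, 4.16 and 4.70 in IL-31. The IL-13 libraries lay mostly below the PBS libraries, with an overlap through PBS library 5. The log2 fold change in IL-13 was -0.77 ± 0.22 (SE, limma adjusted p = 0.0210), a level 1.70-fold lower than in PBS. In IL-4 it was -0.54 ± 0.22 (adjusted p = 0.101) and in IL-31 -0.31 ± 0.22 (adjusted p = 0.400), neither of which passed. The Cnp call in IL-13 was lost without IL-13 library 3 or 4 or without PBS library 2, and without PBS libraries 1 to 3 its fold change was -0.56 (adjusted p = 0.304).

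The other 13 genes of that role did not pass in any comparison with PBS with all libraries, and their fold changes ranged widely. Mbp differed least in IL-4, by -0.05 ± 0.22 (95% interval -0.52 to 0.42), and by -0.19 ± 0.22 in IL-13 and 0.13 ± 0.22 in IL-31. Pmp22 gave -0.42 ± 0.22 in IL-4, -0.51 ± 0.22 in IL-13 and -0.15 ± 0.22 in IL-31, and Cadm4 -0.59 ± 0.22, -0.55 ± 0.22 and -0.38 ± 0.22 in the same order. Cadm4 in IL-4 (limma adjusted p = 0.0663) passed under 5 of 19 alternatives, among them array weights and the replicate block, and in IL-13 (adjusted p = 0.0812) under 2. Pmp22 in IL-13 passed under 2 of 19. Prx and Drp2, partners in the complex that holds the outer Schwann cell surface to its laminin receptor, gave -0.27 ± 0.32 and -0.18 ± 0.29 in IL-4. In IL-13 they gave -0.33 ± 0.32 and -0.42 ± 0.29. Mag, the adhesion protein facing the axon, gave -0.44, -0.69 and -0.65 in IL-4, IL-13 and IL-31, each with an SE of 0.41. Its mean level of 1.09 log2 CPM was low. The remaining genes of this role were Pllp and Mal, raft proteins of the sheath, Gjc3, a connexin of its innermost membrane, Cldn19, a claudin of its tight junctions, Ncmap, a protein of uncompacted myelin, and Ugt8a. Their fold changes lay between -0.55 (Cldn19 in IL-13) and 0.16 (Ncmap in IL-4). Of the exon bases of Pllp, 54.2% also belong to the antisense gene Gm45767.

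Fa2h had the highest fold change of its role in IL-4 and in IL-13, where it was the only one of the 14 above 0. It read 9.84, 8.99, 9.27, 8.85 and 9.19 log2 CPM in IL-4 and 8.88, 9.62, 8.50, 8.49 and 9.05 in IL-13. It read 8.50, 8.72, 8.74, 8.37 and 8.44 in IL-31, against 8.47, 8.19, 9.99, 8.16 and 7.67 in PBS. PBS library 3 was the highest of all 20, and the other 4 PBS libraries lay below every IL-4 library. With all libraries the fold change in IL-4 was 0.73 ± 0.31 (limma adjusted p = 0.110). Without PBS library 3 Fa2h passed in both IL-4 and IL-13, and without PBS libraries 1 to 3 in IL-4. Sebaceous gland genes, of which the enzyme Awat1 and the keratin Krt79 rose in IL-4 and Krt79 in IL-13, summed to 0.433 to 0.805% of CPM in IL-4, 0.291 to 0.679% in IL-13 and 0.219 to 1.001% in PBS. Of the 9 sebaceous genes, 6 rose in IL-4 and 1 in IL-13 when PBS libraries 1 to 3 were left out. Their part in the Fa2h levels was not tested.

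Of the regulators and signals of myelination, Pou3f1 in IL-13 was the call. Pou3f1, the POU factor of the promyelinating step, which epidermis also uses (chromosome 4, 124656807 to 124660655, plus strand), read 7.34, 7.20, 7.97, 7.57 and 7.43 log2 CPM in IL-13, against 7.14, 6.64, 6.56, 7.10 and 6.93 in PBS. All 5 IL-13 libraries lay above all 5 PBS libraries, a separation that 2.52% of all genes shared in that direction. The log2 fold change was 0.63 ± 0.14 (limma adjusted p = 0.00485), a 1.54-fold rise. Without PBS libraries 1 to 3 it was 0.49 and did not pass (adjusted p = 0.105). In IL-31 Pou3f1 read 7.14, 7.16, 7.49, 7.39 and 7.42, of which the lowest (7.143) was just above the highest PBS library (7.141; 2.93% of all genes had no overlap in that direction), and the fold change of 0.45 ± 0.14 did not pass (adjusted p = 0.0585). In IL-4 it read 7.21, 7.32, 6.88, 7.14 and 7.30 (fold change 0.30 ± 0.14, adjusted p = 0.147).

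Egr2, the zinc finger factor that switches on the myelin programme, read 5.11, 4.85, 5.03, 4.93 and 4.95 log2 CPM in IL-13, against 4.83, 4.07, 4.77, 4.81 and 4.55 in PBS. The IL-13 libraries lay above all PBS libraries, as did 2.52% of all genes, and the fold change of 0.37 ± 0.13 did not pass (limma adjusted p = 0.0545). Egr2 read 4.65, 4.94, 4.82, 5.20 and 5.13 in IL-4 and 4.91, 5.16, 4.83, 5.00 and 4.82 in IL-31, with fold changes of 0.35 ± 0.13 and 0.34 ± 0.13 that did not pass either (adjusted p = 0.0749 and 0.123). Egr2 passed under 6 of 19 alternatives in IL-13 and 5 of 19 in IL-4. Which cells of the ear gave the Egr2 reads was not tested. Dhh, the hedgehog ligand by which Schwann cells organise the perineurium, gave -0.95 ± 0.37 in IL-4 (adjusted p = 0.0830), -0.73 ± 0.37 in IL-13 and -0.75 ± 0.37 in IL-31. Its mean level was 1.21 log2 CPM. Of the exon bases of Dhh, 12.4% also belong to Rhebl1 and 25.2% to the antisense gene Gm49442. Cntf, a neurotrophic factor made by myelinating Schwann cells, differed by 0.02, -0.34 and 0.16, each with an SE of 0.43, and 78.9% of its exon bases also belong to Zfp91, so its value is uncertain.

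None of the 3 genes of the node, paranode and juxtaparanode passed with all libraries. Kcna1, a potassium channel of the juxtaparanodal axon and the highest of the 3 in log2 CPM, read 3.66, 2.89, 2.78, 2.74 and 2.56 log2 CPM in IL-4, 2.26, 3.21, 1.73, 2.74 and 2.66 in IL-13 and 2.84, 3.15, 2.90, 2.84 and 3.01 in IL-31. In PBS it read 3.25, 2.99, 3.54, 3.47 and 1.91, and every cytokine group overlapped it. Its fold changes were -0.11, -0.51 and -0.08, each with an SE of 0.29, and without PBS library 5 it passed in IL-13 (-0.79, limma adjusted p = 0.0224). Nfasc gave -0.33, -0.59 and -0.62 (SE 0.35 each) and passed in IL-13 without PBS library 1 (adjusted p = 0.0493). Gldn, which gathers sodium channels at nodes, gave 0.14, -0.05 and 0.10 (SE 0.25 each).

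Of the 6 genes of non-myelinating and immature Schwann cells, Ncam1 fell in IL-4 and IL-13 and Scn7a in IL-13. Ncam1, an adhesion molecule of Remak cells and their axons that muscle also carries (chromosome 9, 49502136 to 49798925, minus strand), read 2.96, 3.52, 3.38, 2.77 and 3.29 log2 CPM in IL-4, against 4.24, 4.41, 4.20, 3.84 and 3.73 in PBS. It read 2.69, 3.64, 2.11, 3.35 and 2.82 in IL-13 and 3.87, 3.96, 2.81, 3.30 and 3.98 in IL-31. All IL-4 and all IL-13 libraries lay below all PBS libraries, a separation shared by 5.89% and 5.01% of all genes in that direction, while the IL-31 libraries overlapped PBS. The log2 fold change was -0.90 ± 0.26 in IL-4 (limma adjusted p = 0.0241) and -1.16 ± 0.26 in IL-13 (adjusted p = 0.00572), that is 1.86-fold and 2.24-fold lower. In IL-31 it was -0.50 ± 0.26 and did not pass (adjusted p = 0.256). The IL-4 call was lost without IL-4 library 4 or PBS library 2. Without PBS libraries 1 to 3 the fold changes were -0.60 in IL-4 and -0.87 in IL-13, neither of which passed (adjusted p = 0.315 and 0.191).

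Scn7a, a sodium-sensing channel of non-myelinating Schwann cells (chromosome 2, 66673425 to 66784914, minus strand, with the promoter printed above), read 3.28, 4.06, 3.03, 3.16 and 3.62 log2 CPM in IL-13, against 3.95, 4.62, 4.65, 3.93 and 3.56 in PBS. It read 4.18, 3.42, 3.82, 3.44 and 3.24 in IL-4 and 4.05, 4.02, 3.31, 3.67 and 4.08 in IL-31. The groups overlapped in each comparison. The log2 fold change in IL-13 was -0.71 ± 0.24 (limma adjusted p = 0.0418), and it was -0.52 ± 0.24 in IL-4 and -0.31 ± 0.24 in IL-31, which did not pass (adjusted p = 0.141 and 0.424). The IL-13 call was lost in 7 of the 10 fits that left out a library, under both other scalings, and without PBS libraries 1 to 3, where the fold change was -0.32 (adjusted p = 0.596).

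The other 4 genes of that role did not pass in any comparison with PBS with all libraries. L1cam, a second adhesion molecule of Remak cells and axons, was the steadiest, with a within-group SD of 0.22 and fold changes of 0.24, 0.11 and 0.02 in IL-4, IL-13 and IL-31 (SE 0.13 each). Cdh19, a cadherin of Schwann cell precursors, gave 0.03, -0.41 and -0.26 (SE 0.23 each), and passed in IL-13 without PBS library 5. Sox2 and Foxd3, factors of immature and neural crest cells, stood at means of 0.50 and 0.27 log2 CPM and gave fold changes between -0.59 and 0.25. The median over the 6 genes was -0.15 in IL-4, -0.33 in IL-13 and -0.37 in IL-31. It was 0.06, -0.11 and -0.17 in the same order without PBS libraries 1 to 3, and without PBS library 3 alone it was 0.01 in IL-4.

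Of the 4 genes of the whole lineage or of no settled place, Erbb3 rose in all 3 comparisons and Art3 fell in IL-4 and IL-13. Erbb3, the neuregulin receptor of Schwann cells that epidermis and melanocytes also carry (chromosome 10, 128567523 to 128589652, minus strand), read 6.88, 6.89, 7.004, 7.18 and 7.07 log2 CPM in IL-4 and 7.08, 6.85, 7.28, 7.13 and 7.10 in IL-13. It read 6.92, 6.99, 7.08, 6.96 and 6.88 in IL-31, against 6.56, 6.49, 6.67, 6.90 and 6.72 in PBS. PBS library 4 overlapped each cytokine group and the other 4 PBS libraries lay below all 15 cytokine libraries. The log2 fold changes were small, 0.34 ± 0.09 in IL-4 (limma adjusted p = 0.0118), 0.42 ± 0.09 in IL-13 (adjusted p = 0.00331) and 0.30 ± 0.09 in IL-31 (adjusted p = 0.0459). Without PBS libraries 1 to 3 they were 0.20, 0.28 and 0.16 and none passed (adjusted p = 0.255, 0.142 and 0.719), and the IL-31 call was lost in 8 of the 10 fits that left out a library.

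Genes of the suprabasal epidermis rose in all 3 comparisons, as Erbb3 did, and so in the IL-13 comparison in which Pou3f1 rose. Of 12 such genes, 9 rose in IL-4, 11 in IL-13 and 10 in IL-31, and none fell. They summed to 3.35 to 5.66% of CPM in IL-4, 3.40 to 7.14% in IL-13 and 4.75 to 7.12% in IL-31, against 0.834 to 4.74% in PBS. Among them Lor, the cornified envelope protein loricrin, rose by 2.08 in IL-4, 2.47 in IL-13 and 2.43 in IL-31 on the log2 scale. Dsg1a, a suprabasal desmoglein, rose by 1.01, 1.12 and 1.20 in the same order. None of the 12 passed in any of the 3 comparisons without PBS libraries 1 to 3, where Lor gave 0.05, 0.44 and 0.40 and Dsg1a 0.18, 0.29 and 0.36. Those libraries had the lowest PBS scores in these same 12 genes, so smaller rises without them follow from the choice of libraries. That fit therefore cannot show where the rise comes from. Their part in the Erbb3 and Pou3f1 results was not tested.

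Art3 had the largest fold changes of the 31 members in IL-4 and IL-13. It encodes a membrane-anchored protein of the ADP-ribosyltransferase family, which skeletal muscle and testis also transcribe (chromosome 5, 92331827 to 92414628, plus strand, with the promoters printed above). It read 4.24, 4.55, 4.71, 4.27 and 4.33 log2 CPM in IL-4, against 5.81, 6.68, 5.71, 5.81 and 5.70 in PBS. It read 3.96, 5.10, 3.54, 4.36 and 4.00 in IL-13 and 5.61, 5.88, 4.40, 5.43 and 5.44 in IL-31. All IL-4 and IL-13 libraries lay below all PBS libraries, as did 5.89% and 5.01% of all genes. Of the IL-31 libraries only library 2 lay within the PBS range. The log2 fold change was -1.52 ± 0.27 in IL-4 (limma adjusted p = 0.00154) and -1.75 ± 0.27 in IL-13 (adjusted p = 0.00132), or 2.88-fold and 3.37-fold lower than in PBS. In IL-31 it was -0.59 ± 0.27 and did not pass (adjusted p = 0.190). The IL-4 and IL-13 calls held in every fit that left out a library, and without PBS libraries 1 to 3, where the fold changes were -1.34 and -1.56 (adjusted p = 0.0319 and 0.0325).

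Skeletal muscle genes fell in the same comparisons as Art3 and Ncam1. All 20 of a list of muscle genes fell in IL-4 and in IL-13, with medians of -2.82 and -2.66, and none passed in IL-31, where the median was -0.91. When PBS libraries 1 to 3 were left out, 19 of the 20 fell in IL-4 and 4 in IL-13, with medians of -2.69 and -2.62. They summed to 0.065 to 0.502% of CPM in IL-4, 0.132 to 0.557% in IL-13 and 0.266 to 1.22% in IL-31, against 0.978 to 2.85% in PBS. The library with the highest Art3 level was also the highest in the muscle score in each of the 4 groups (IL-4 library 3, IL-13 library 2, IL-31 library 2 and PBS library 2). For Ncam1 the same libraries were the highest in IL-13 and PBS, but not in IL-4 and IL-31. The part of muscle in the Art3 and Ncam1 results was not tested. Art3 also shares 133 bases of exon with the chemokine gene Cxcl10 on the other strand, a neighbour named after its values were seen, and the strand setting of the counting is not given in the sources used here. Cxcl10 gave -2.37 ± 1.02 in IL-4 and -2.23 ± 1.02 in IL-13, which did not pass.

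Sox10 and S100b did not pass. Sox10 gave -0.13, -0.10 and -0.42 in IL-4, IL-13 and IL-31 (SE 0.30 each), with 95% intervals of -0.77 to 0.50, -0.73 to 0.54 and -1.05 to 0.22. S100b gave -0.27, -0.40 and -0.30 (SE 0.24 each), and its PBS values of 6.58, 6.52, 6.66, 6.14 and 5.08 spanned the values of all 15 cytokine libraries. PBS library 5 was the lowest of the 20 for both genes, and without it S100b passed in all 3 comparisons with PBS and Sox10 in IL-31, as falls.

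**Figure D3:**
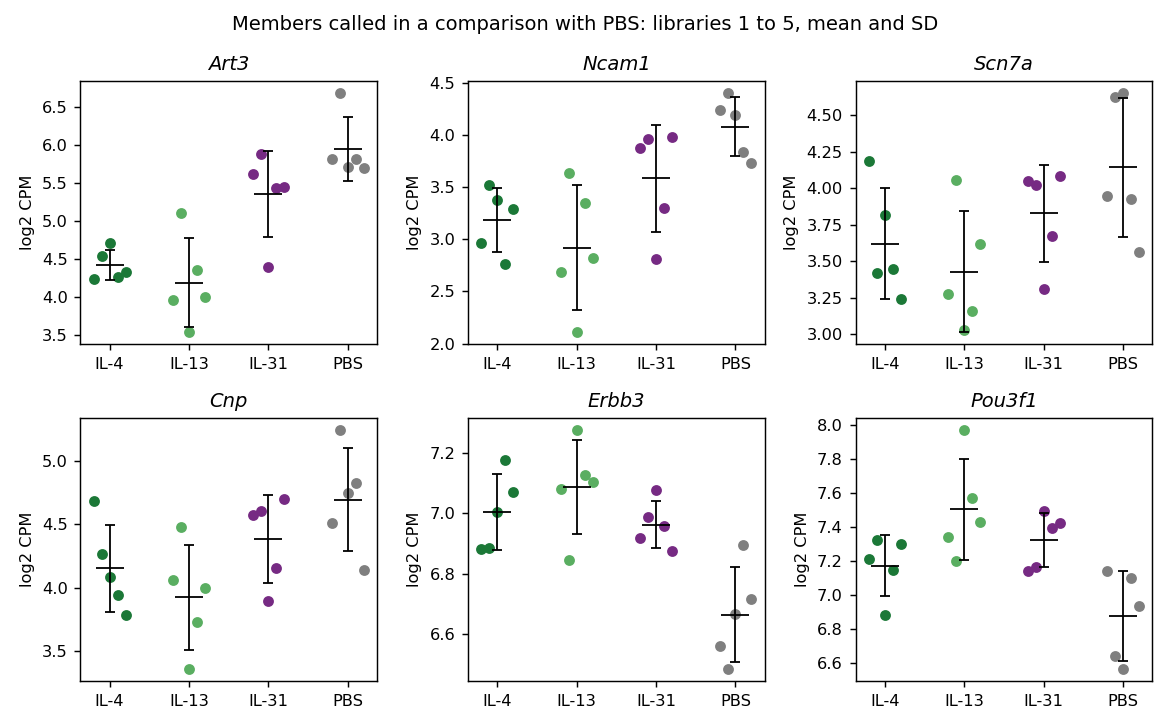
Log2 CPM of the 6 members that passed in a comparison with PBS, with libraries 1 to 5 as points in IL-4, IL-13, IL-31 and PBS from left to right, and the mean and SD (n = 5) as bars. Art3 and Ncam1 lie below all PBS points in IL-4 and IL-13, Pou3f1 lies above them in IL-13, and Scn7a, Cnp and Erbb3 overlap PBS.

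Between the cytokines no member passed, and no gene of the 16461 did in limma (0% of all genes in each of the 3 comparisons). At an unadjusted p under 0.05, 1 member (Pou3f1) reached that level in IL-4 against IL-13 (4.03% of all genes), 2 in IL-4 against IL-31 (10.6%) and 2 in IL-13 against IL-31 (7.29%). Art3 was 0.93 log2 units lower in IL-4 than in IL-31 and 1.16 lower in IL-13 than in IL-31, with fold changes of -0.93 ± 0.27 (adjusted p = 0.175) and -1.16 ± 0.27 (adjusted p = 0.215). Without IL-31 library 3, the lowest of its group, Art3 passed in both. Of the others, Fa2h in IL-4 lay above all IL-31 libraries, as did 2.14% of all genes (fold change 0.67 ± 0.31, adjusted p = 0.444), and Ncam1 in IL-13 against IL-31 gave -0.66 ± 0.26 (adjusted p = 0.487).

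The myelin genes varied more between libraries of the same group than most genes, and they did so together. The median within-group SD was 0.51 log2 units for the 21 myelin genes, 0.43 for the 6 non-myelinating genes and 0.27 for all genes tested. The sets were not matched by level. The SD was 0.77 for Ugt8a and 0.69 for Mag, at low means of 1.01 and 1.09 log2 CPM. It was 0.54 for Fa2h and 0.39 for Mbp, at means of 8.80 and 6.92. In IL-4, library 1 was the highest of its group for all 14 membrane, sheath and lipid genes and library 4 the lowest for 11. In IL-13, library 2 was the highest for all 14 and library 3 the lowest for 6. In IL-31, library 5 was the highest for 8 and library 3 the lowest for 11, while in PBS libraries 2 and 3 were the highest for 7 each and libraries 5 and 1 the lowest for 8 and 6. No test was made of this ordering, since the genes of a library share their tissue piece.

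Summed up as a score, the mean centred log2 CPM of the 14 genes was 0.64, 0.09, -0.10, -0.49 and -0.22 in IL-4 libraries 1 to 5 and -0.40, 0.64, -0.58, -0.35 and -0.27 in IL-13. It was 0.24, 0.18, -0.43, -0.18 and 0.28 in IL-31, against -0.23, 0.66, 0.71, 0.38 and -0.57 in PBS. Each group spanned most of the range of all 20, except IL-31, which was narrower. Of other cell types, the score of 8 adipocyte genes was 0.95, -0.39, 0.20, -1.12 and -1.04 in IL-4, and -0.61, 0.39, -1.85, -0.96 and -0.28 in IL-13. In IL-31 it was 0.25, 0.86, -0.51, -0.48 and 0.88, against -0.56, 1.94, 1.70, 0.92 and -0.28 in PBS. In the IL-4, IL-13 and IL-31 groups the library highest in the myelin score was also the highest in the adipocyte score. Of the 8 adipocyte genes, 3 fell in IL-13 (Lpl, Cfd and Fabp4; 0 without PBS libraries 1 to 3), none passed in IL-4 or IL-31, and the summed level was 0.018 to 0.060% of CPM in IL-4, 0.010 to 0.037% in IL-13 and 0.023 to 0.046% in IL-31, against 0.027 to 0.098% in PBS. The part of differing tissue makeup in the myelin values was not tested. As for muscle, IL-4 library 1, the highest of its group in the myelin score, had the lowest muscle score of all 20 libraries (-3.09). In IL-13, library 2 was the highest of its group in both scores. In IL-31 and PBS the library highest in the myelin score was not the highest in the muscle score. The part of muscle in the myelin values was not tested.

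**Figure D4:**
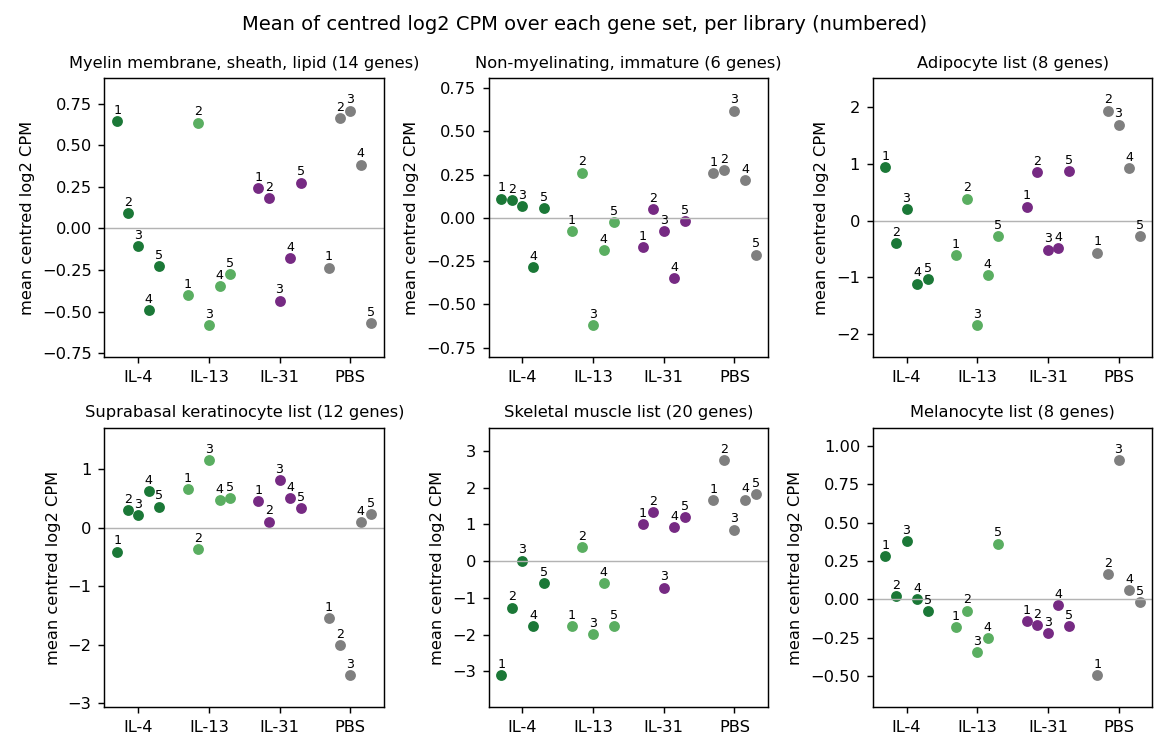
Mean centred log2 CPM per library (points, numbered 1 to 5) over the 14 myelin membrane, sheath and lipid genes, the 6 non-myelinating or immature genes, and lists of adipocyte, suprabasal keratinocyte, skeletal muscle and melanocyte genes, in IL-4, IL-13, IL-31 and PBS from left to right. The myelin scores of the 4 groups overlap, from -0.58 in IL-13 library 3 to 0.71 in PBS library 3, while the muscle scores of IL-4 and IL-13 lie below those of PBS.

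Melanocytes share Sox10 and Erbb3 with glia. Of 8 melanocyte genes tested, none passed in IL-4 or IL-31 and 1 (Mitf, the master factor of the pigment lineage, -0.54) fell in IL-13, and none did without PBS libraries 1 to 3. Their summed level was 0.006 to 0.010% of CPM in IL-4, 0.004 to 0.008% in IL-13 and 0.005 to 0.006% in IL-31, against 0.005 to 0.014% in PBS.

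Other genes of the same biology were read from lists that hold no member. None of their genes passed in IL-31 when PBS libraries 1 to 3 were left out. With all libraries, 25 to 37.5% of the myelin, signal, repair, axon and perineurium lists passed in IL-4. In IL-13 it was 18.8 to 43.8% and in IL-31 0 to 22.2%. Of all genes tested 17.8, 19.7 and 6.38% passed in the same order. Whether the lists differ from all genes was not tested. Of 16 further myelin genes, 2 rose and 2 fell in IL-4, 2 rose and 1 fell in IL-13, and 1 rose in IL-31. With PBS libraries 4 and 5 alone, 2 rose and 1 fell in IL-4 and 1 rose in IL-13. Gal3st1, the enzyme that sulfates galactosylceramide to sulfatide, rose in all 3, by 0.71 ± 0.15 in IL-4, 0.90 ± 0.15 in IL-13 and 0.62 ± 0.15 in IL-31 (limma adjusted p = 0.00462, 0.00169 and 0.0266), and passed in none of them without PBS libraries 1 to 3 (0.52, 0.70 and 0.43). Cd9, a tetraspanin of myelin and of many epithelia, rose in IL-4 (0.25) and IL-13 (0.19). Plekhb1 fell in IL-13 (-1.004), and Fads2, a fatty acid desaturase, and Cd81, a tetraspanin, fell in IL-4 (-0.56 and -0.22).

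Of 18 genes of the neuregulin, Lgi4, Adgrg6 and laminin signals that reach Schwann cells, 4 rose and 1 fell in IL-4, 2 rose and 3 fell in IL-13, and 2 rose in IL-31. Against PBS libraries 4 and 5 alone, 1 rose and 3 fell in IL-4 and 2 fell in IL-13. Erbb2, the partner of ERBB3 and likewise an epidermal receptor, rose by 0.43 in IL-4 and 0.48 in IL-13, and Nrg2, a neuregulin ligand, by 0.65 in IL-4 and 0.55 in IL-31. Yap1, a coactivator used by Schwann cells and by epidermis, rose in all 3 (0.33, 0.33 and 0.28). Itga7, a laminin receptor chain of muscle as well as glia, fell in IL-4 (-1.28) and IL-13 (-1.35), and also against PBS libraries 4 and 5 alone (-1.16 and -1.22).

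Of 16 tested genes of repair Schwann cells, the state that follows nerve injury, 2 rose and 4 fell in IL-4, 2 rose and 5 fell in IL-13, and 1 rose in IL-31. The counts without PBS libraries 1 to 3 were 1 up and 2 down in IL-4 and 1 down in IL-13. Ngfr, the low-affinity neurotrophin receptor, rose in IL-4 (0.67) and IL-13 (0.70), and Btc, an epidermal growth factor receptor ligand, rose in all 3 (1.37, 1.24 and 1.64), with 0.35, 0.22 and 0.62 and no call without those libraries. Gap43, a growth-associated protein of axons and immature glia, fell by 1.30 in IL-4 and by 0.85 in IL-13 on the log2 scale. Zeb2, a repressor needed for myelination, fell by 0.76 and 0.74, and Nes, an intermediate filament protein of glia and of muscle, by 1.08 and 1.17. The members of the list thus moved in both directions, and Jun, the factor that defines the repair state, did not pass.

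Of 10 tested genes of axons and node partners, 3 fell in IL-4 and the same 3 in IL-13, and none passed in IL-31. The 3 were Uchl1, an abundant deubiquitinase of neurons (-1.48 and -1.51), Kcnab2, a subunit that joins KCNA1 channels (-0.89 and -0.83), and Ank3, which anchors channels at nodes and is also used by muscle and epithelia (-0.38 and -0.37). Of the 10, only Kcnab2 passed without PBS libraries 1 to 3, in IL-4 (-1.13). Kcna1 itself did not pass. Of 9 genes of the perineurium and endoneurium, the sheaths around nerve bundles, Cldn1 and Lypd2 rose in all 3 comparisons, by 0.68 to 0.70 and by 1.39 to 1.61 on the log2 scale, and in none without PBS libraries 1 to 3 (0.20 to 0.22 and 0.47 to 0.69). Cldn1 is also a tight junction protein of epidermis. Osr2 fell in IL-4 (-1.29).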

How the data were processed

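Per the labels' protocols, an RNeasy Plus Universal mini kit gave the RNA and a NEBNext Ultra II kit the libraries. The authors deposited log2 CPM values for 16669 genes, and the build GRCm38 and edgeR (no version) come from the submitters' processing notes. For the aligner, the counter and the strand setting, no statement is given in the sources used here. The lowest value, -2.68 in every library, equals an offset of 0.156 CPM on the log2 scale, which shrinks the fold changes of low genes. Effective library sizes read from the steps of low values were 6.11 to 23.7 M reads (median 13.0 M), at which 3 reads equal 0.126 to 0.491 CPM; this covers counting error only. In each library 75.3 to 87.3% of low values were whole within 0.02 reads, so reads were not recovered and no count test was run.

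Genes at 0 log2 CPM or more in 5 of 20 libraries were kept (16461). limma 3.58.1 (R 4.3.3, lmFit, eBayes with trend) fitted the 4 groups to all libraries, two-sided, with Benjamini-Hochberg adjustment over all genes tested. The method was tested on simulated data in which each gene varied on its own. Genes that move together within a library, as the myelin genes did here, were not simulated. Gene models came from GENCODE release M21, and promoters from RefSeq (GRCm38.p6). Python 3.11.15 with pandas 2.3.3 and matplotlib 3.10.9 made the descriptions and figures. Each member has full values if it passed in a comparison, if its groups did not overlap against PBS, or if it was the highest of a role with no call; Fa2h, S100b and Cxcl10 were added after their values were seen, and genes of other lists are named where they passed or as marker levels. The members and lists were chosen with earlier results of these data known. Alternatives were other filters, offsets and scalings, a fit of 2 groups only, array weights, the replicate number as a block, and leaving out libraries. Counts of the other lists without PBS libraries 1 to 3 were added after seeing the data. A score is a mean of log2 CPM centred per gene. The numbers of the replicates were not taken as pairs.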

Additional observations from a re-analysis of the deposited data

Results flagged for a closer look

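Each member was checked for a library far from the other 4 of its group, by the gap to its nearest neighbour over the group's range (critical value 0.71 for 5 libraries). Of 124 gene and group pairs 4 passed that value, and chance gives about 5%. Ncmap was low in IL-31 library 3, at 3.64 log2 CPM with the other 4 from 4.13 to 4.20. Ncmap was also low in PBS library 5, at 2.70 with the others from 4.15 to 4.62. Art3 was high in PBS library 2, at 6.68 with the others from 5.70 to 5.81. Gldn was high in PBS library 3, at 2.98 with the others from 2.15 to 2.36.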

How the results depend on the processing

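No fold change of a called member reversed under any alternative, and the Art3 calls in IL-4 and IL-13 were kept in all of them. The number of members that passed moved as follows. With array weights it was 6 in IL-4, 9 in IL-13 and 2 in IL-31 against PBS, and 1 (Art3) in both IL-4 and IL-13 against IL-31. Without PBS libraries 1, 2 and 3 it was 2 in IL-4, 1 in IL-13 and 0 in IL-31 (alternative listed because of an earlier look at these data). In IL-31 against PBS it was 0 after quantile normalization, 2 with libraries centred on their median and 0 in a fit of only the 2 groups. Leaving out each library in turn gave 2 to 6 in IL-4, 4 to 9 in IL-13 and 0 to 4 in IL-31 against PBS, 0 to 0 in IL-4 against IL-13, 0 to 1 in IL-4 against IL-31 and 0 to 1 in IL-13 against IL-31. The cause of these moves was not tested. With quantile normalization the share of higher genes among all that passed was 59.5% in IL-4 and 61.4% in IL-13, beside 46.1% and 50.4%. Over all alternatives the median fold change of the 21 myelin genes ran from -0.43 to 0.02 in IL-4, -0.67 to -0.17 in IL-13 and -0.31 to 0.19 in IL-31. With the replicate number as a block, 4 (with Cadm4 added), 6 and 1 members passed in IL-4, IL-13 and IL-31 against PBS and 0 between cytokines. Deviations of libraries with the same number correlated at -0.24 to 0.49. The correlation was above 0.1 in 4 of 5 pairs in IL-13 against IL-31, in 0 to 2 of 5 in the other comparisons and in every pair of none, so the numbers were not taken as pairing. Differences below 3 reads were not detectable, and Foxd3, Sox2, Ugt8a, Mag, Dhh and Cntf are near that depth in some libraries.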
